A study of Mus musculus with 12 samples.

Results

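The ribosomal protein genes described here encode the proteins that, with ribosomal RNA, build the cytosolic ribosome. They were chosen by their symbols: Rpl or Rps with a number, Rplp0 to Rplp2, Rpsa and the named paralogs such as Rps27l and Rpl22l1. Pseudogene names were left out, and a mean of at least 50 counts over the 12 libraries was required. Of 46882 gene names in the deposited table, 82 matched and 79 were kept, 47 of the large (60S) and 32 of the small (40S) subunit. The matched names under the minimum were Rpl10l, with a mean of 0 counts, Rpl39l with 0.25 and Rpl3l with 6.08. The members just above the minimum were Rpl24 with 53.2, Rps4l with 350.1 and Rpl22l1 with 619.1. The naming rule passed over Rps3a1, Rpl36al and Rpl7l1, and also Fau, which encodes a ribosomal protein fused to a ubiquitin-like protein. Every one of the 79 members was abundant enough to enter the test, among 13706 genes tested.

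The study compared liver RNA of A1cf -/- mice (KO) with that of wild-type mice (WT), all C57BL/6 and 6 to 8 weeks old, with no other treatment named. A1CF is an RNA-binding protein that was found as a cofactor of APOBEC1, the enzyme that edits Apob mRNA. Each genotype had 6 libraries, given as biological replicates in the series' design text. Each library is called here by its genotype and the number in its title (KO 574, 584, 588, 591, 602 and 780; WT 573, 590, 601, 776, 777 and 778). The labels used here give neither the deleted stretch nor whether the loss is limited to hepatocytes. A1cf itself stood at 10.6 ± 1.5 CPM in KO and 50.9 ± 2.3 CPM in WT (SD, n = 6 each), where CPM is the count relative to the TMM-scaled library size. Its highest KO library, at 12.6 CPM, lay below its lowest WT library, at 47.9 CPM.

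Ribosomal proteins are needed in near-equal numbers, since most are present once in each ribosome, and in mammals many of their mRNAs begin with a run of pyrimidines, the 5′ TOP motif. Through it the growth-sensing TOR kinase sets their translation. The large subunit joins amino acids, and its stalk, which recruits translation factors, is made of Rplp0, Rplp1 and Rplp2. The small subunit reads the mRNA, and one of its proteins, Rps6, is phosphorylated downstream of TOR. A few ribosomal protein genes have a second, expressed paralog. Rps27l (ribosomal protein S27-like) is the paralog of Rps27 and is also known as a p53 target in human and mouse cells.

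The start regions of Rps27l, Rps27 and the members with the next smallest p-values of each subunit, Rps6 and Rpl14, are shown because the pyrimidine run is the sequence feature that the family is known for. Each window holds the 15 bases before the annotated RefSeq start and the 15 bases that follow (assembly GRCm38.p6, coding strand). Capitals mark the longest run within 10 bases of the start that begins with C and holds at least 4 further pyrimidines.
Rps27l, chr9:66946071-66946100, plus strand: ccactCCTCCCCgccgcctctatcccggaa
Rps27, chr3:90213634-90213663, minus strand: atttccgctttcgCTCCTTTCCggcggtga
Rps6, chr4:86857353-86857382, minus strand: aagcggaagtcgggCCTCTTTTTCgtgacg
Rpl14, chr9:120571502-120571531, plus strand: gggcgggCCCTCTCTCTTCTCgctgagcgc
Within 10 bases of the start the run held 7 bases at Rps27l, 9 at Rps27, 10 at Rps6 and 14 at Rpl14. At Rps27l the pyrimidines go on beyond that limit, with the c and t printed just before the capitals. Its length is thus cut short by the limit, while the runs of the other genes shown end inside it. The run at Rps27l lay wholly before the annotated start. Rps27l has another RefSeq start, whose window at chr9:66946398-66946427 holds no such run. Of the 79 members, 58 had a RefSeq window, with 69 windows in all, since some genes have several annotated starts. Such a run was found in 34 of these 69 windows, or 49.3%, against 25.5% of all 32851 mouse windows. It was present in 22 of 41 large subunit windows and in 12 of 28 small subunit windows. Over the full 300 bases (250 before and 50 after the start), CCGGAAG, the core of the ETS family motif, was found on either strand in 36.2% of the ribosomal protein windows and 8.86% of all windows. AAGATGGC, the core of the YY1 motif, was found in 10.1% of the ribosomal protein windows and 2.75% of all windows. GGGCGG, the GC box, was found in 60.9% of the ribosomal protein windows and 35.7% of all windows, and TATAAA in 10.1% of the ribosomal protein windows and 13.6% of all windows. The pyrimidine run was searched on the coding strand, and a window can hold several of these motifs. These shares describe letters in the windows and say nothing of which factors bind there.

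Rps27l fell in KO, and it was the only one of the 79 members to pass an adjusted p of 0.05 (quasi-likelihood test of edgeR, adjusted by the method of Benjamini and Hochberg over all tested genes). Over all tested genes 3.82% passed, 2.09% lower and 1.72% higher in KO. DESeq2 called 4 members, with Rpl7a, Rps6 and Rps9 beside Rps27l, all lower, and it called 8.75% of the 13435 genes for which it gave an adjusted p. Rps27l stood at 72.7, 70.5, 74.1, 79.4, 66.6 and 64.8 CPM in KO 574, 584, 588, 591, 602 and 780, against 104, 102, 112, 98.8, 109 and 114 CPM in WT 573, 590, 601, 776, 777 and 778. The highest KO library lay below the lowest WT library. The means were 71.3 ± 5.3 CPM in KO and 107 ± 6.0 CPM in WT (SD, n = 6 each), which is -0.58 as log2 fold change (standard error 0.07, 95% interval -0.72 to -0.43, adjusted p = 6.5e-04). The KO level was 67.0% of that in WT, and the gene ranked 14 by p among all tested genes. In bulk tissue such a difference cannot tell fewer cells of a type from less RNA per cell.

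The Rps27l call was kept when each library was left out in turn (12 of 12 fits) and in each of the 23 refits in all. Log2 fold changes lay between -0.61 and -0.53, and the largest adjusted p, 0.0418, came from the libraries numbered 573 to 602 alone. The numbers in the titles fall in a range of 573 to 602 (5 KO and 3 WT libraries) and one of 776 to 780 (1 KO and 3 WT libraries), which the labels do not explain. Within them the difference in mean log2 CPM was -0.54 and -0.73. An exact two-sided permutation test of log2 CPM over all 924 assignments of 6 and 6 libraries gave p = 0.00216, the smallest it can give. Fully separated groups always give this value, so the test adds nothing to the separation stated above.

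Rps27l lies on chromosome 9 at 66946086 to 66949516, plus strand (mm10, as counted by the authors), and shares no exonic base with another gene of the counted annotation. Its coding sequence and that of Rps27, on chromosome 3, are shown because reads of near-identical paralogs can be split or lost between them. Both were read from the GENCODE M21 transcripts (GRCm38), without the stop codon, and capitals mark the bases at which the aligned sequences differ.
Rps27l: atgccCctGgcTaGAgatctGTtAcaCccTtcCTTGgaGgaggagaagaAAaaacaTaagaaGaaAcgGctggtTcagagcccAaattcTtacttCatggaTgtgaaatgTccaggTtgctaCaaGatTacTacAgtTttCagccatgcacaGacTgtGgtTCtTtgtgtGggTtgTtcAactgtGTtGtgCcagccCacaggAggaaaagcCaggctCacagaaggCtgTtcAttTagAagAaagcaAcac
Rps27: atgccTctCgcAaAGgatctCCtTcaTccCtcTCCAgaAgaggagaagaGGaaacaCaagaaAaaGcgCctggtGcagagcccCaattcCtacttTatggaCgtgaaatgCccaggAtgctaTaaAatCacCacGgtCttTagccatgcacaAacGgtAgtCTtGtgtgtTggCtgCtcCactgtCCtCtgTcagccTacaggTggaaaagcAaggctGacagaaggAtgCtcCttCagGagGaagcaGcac
Each holds 252 bases, or 84 codons. They were identical at 192 bases (76.2%) and differed at 60, of which 53 were at the last position of a codon. The longest identical stretch was 11 bases.

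Rps27 itself stood at 157 ± 15.4 CPM in KO and 160 ± 15.5 CPM in WT (SD, n = 6 each). Its log2 fold change was -0.02 (standard error 0.09, adjusted p = 0.917), and its libraries overlapped. The count of Rps27l per 100 counts of Rps27, a value that no scaling between libraries can change, was 50.7, 47.5, 43.5, 47.9, 37.9 and 46.6 in KO 574, 584, 588, 591, 602 and 780. It was 73.5, 62.7, 60.6, 65.4, 73.2 and 67.5 in WT 573, 590, 601, 776, 777 and 778. All KO libraries were lower than all WT libraries, with means of 45.7 ± 4.4 in KO and 67.2 ± 5.3 in WT (SD, n = 6 each). The exact two-sided permutation test of the log2 ratio gave p = 0.00216, or 0.00648 adjusted over the 3 paralog ratios tested. This value too was fixed by the full separation, and the adjustment does not cover the choice of Rps27l from these same libraries.

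**Figure D1:**
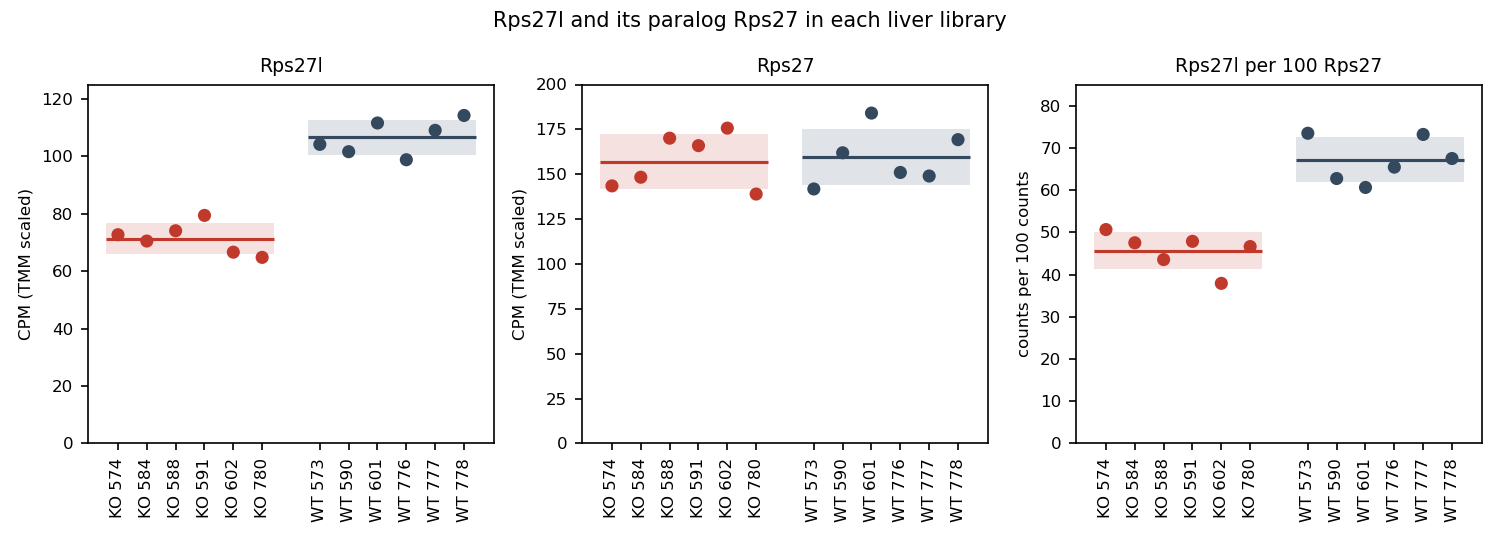
TMM-scaled CPM of Rps27l (left) and Rps27 (middle) and counts of Rps27l per 100 counts of Rps27 (right) in each library. Lines and bands are the mean and SD of 6 libraries. The KO libraries of Rps27l lie between 64.8 and 79.4 CPM, below the WT libraries at 98.8 to 114 CPM, while those of Rps27 overlap.

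The other paralog pairs did not pass. Rpl22l1, the paralog of the RNA-binding large subunit protein Rpl22, stood at 22.4 ± 4.0 CPM in KO and 20.1 ± 3.9 CPM in WT (log2 fold change 0.16, standard error 0.14, adjusted p = 0.551). Rpl22 stood at 102 ± 6.2 CPM in KO and 109 ± 5.9 CPM in WT (-0.09, adjusted p = 0.453). Rpl22l1 per 100 counts of Rpl22 was 21.9 ± 3.4 in KO and 18.5 ± 3.4 in WT (exact two-sided permutation test, p = 0.108, adjusted p = 0.162). Rps4l, a paralog of the X-linked Rps4x, was the member with the widest scatter in KO. It had 8.38, 14.6, 14.4, 6.83, 10.4 and 7.11 CPM in KO 574, 584, 588, 591, 602 and 780. In WT 573, 590, 601, 776, 777 and 778 it had 14.5, 10.99, 11.6, 15.6, 10.04 and 15.2 CPM. The groups overlapped (log2 fold change -0.33, standard error 0.20, adjusted p = 0.373). Its count per 100 counts of Rps4x was 3.35 ± 1.18 in KO and 3.83 ± 1.00 in WT (exact two-sided permutation test, p = 0.392).

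Most ribosomal protein mRNAs lay a little lower in KO by less than the test could call. Of the 79 members, 74 had a log2 fold change below 0, against 48.2% of all tested genes and 66.6% of the 1948 tested genes with a mean over 6 log2 CPM, a range that holds 75 of the 79 members. The median log2 fold change was -0.10 over the members (KO at 93.2% of WT), 0.01 over all tested genes and -0.07 over the abundant ones. At an unadjusted p under 0.05, 9 members (11.4%) were lower and 0 were higher. Lower at that p were 9.9% of all tested genes and 17.4% of the abundant ones. The members' share is thus near that of all tested genes and below that of the abundant ones. The groups were fully separated for 1 member, Rps27l. With KO below WT, 1.97% of all tested genes and 71 of the 1948 abundant ones were separated. None was separated with KO above WT (0 of 79, against 1.33% of all tested genes). The subunits lay close together, with medians of -0.0974 for the large and -0.1127 for the small subunit. Below 0 were 43 of 47 large and 31 of 32 small subunit genes. The ratio of large to small subunit counts ran from 1.37 to 1.44 in KO libraries and from 1.37 to 1.43 in WT libraries. Standard errors had a median of 0.085. The 95% interval lay within 1.5-fold in either direction for 77 of the 79 members, and within 1.25-fold for 48.

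**Figure D2:**
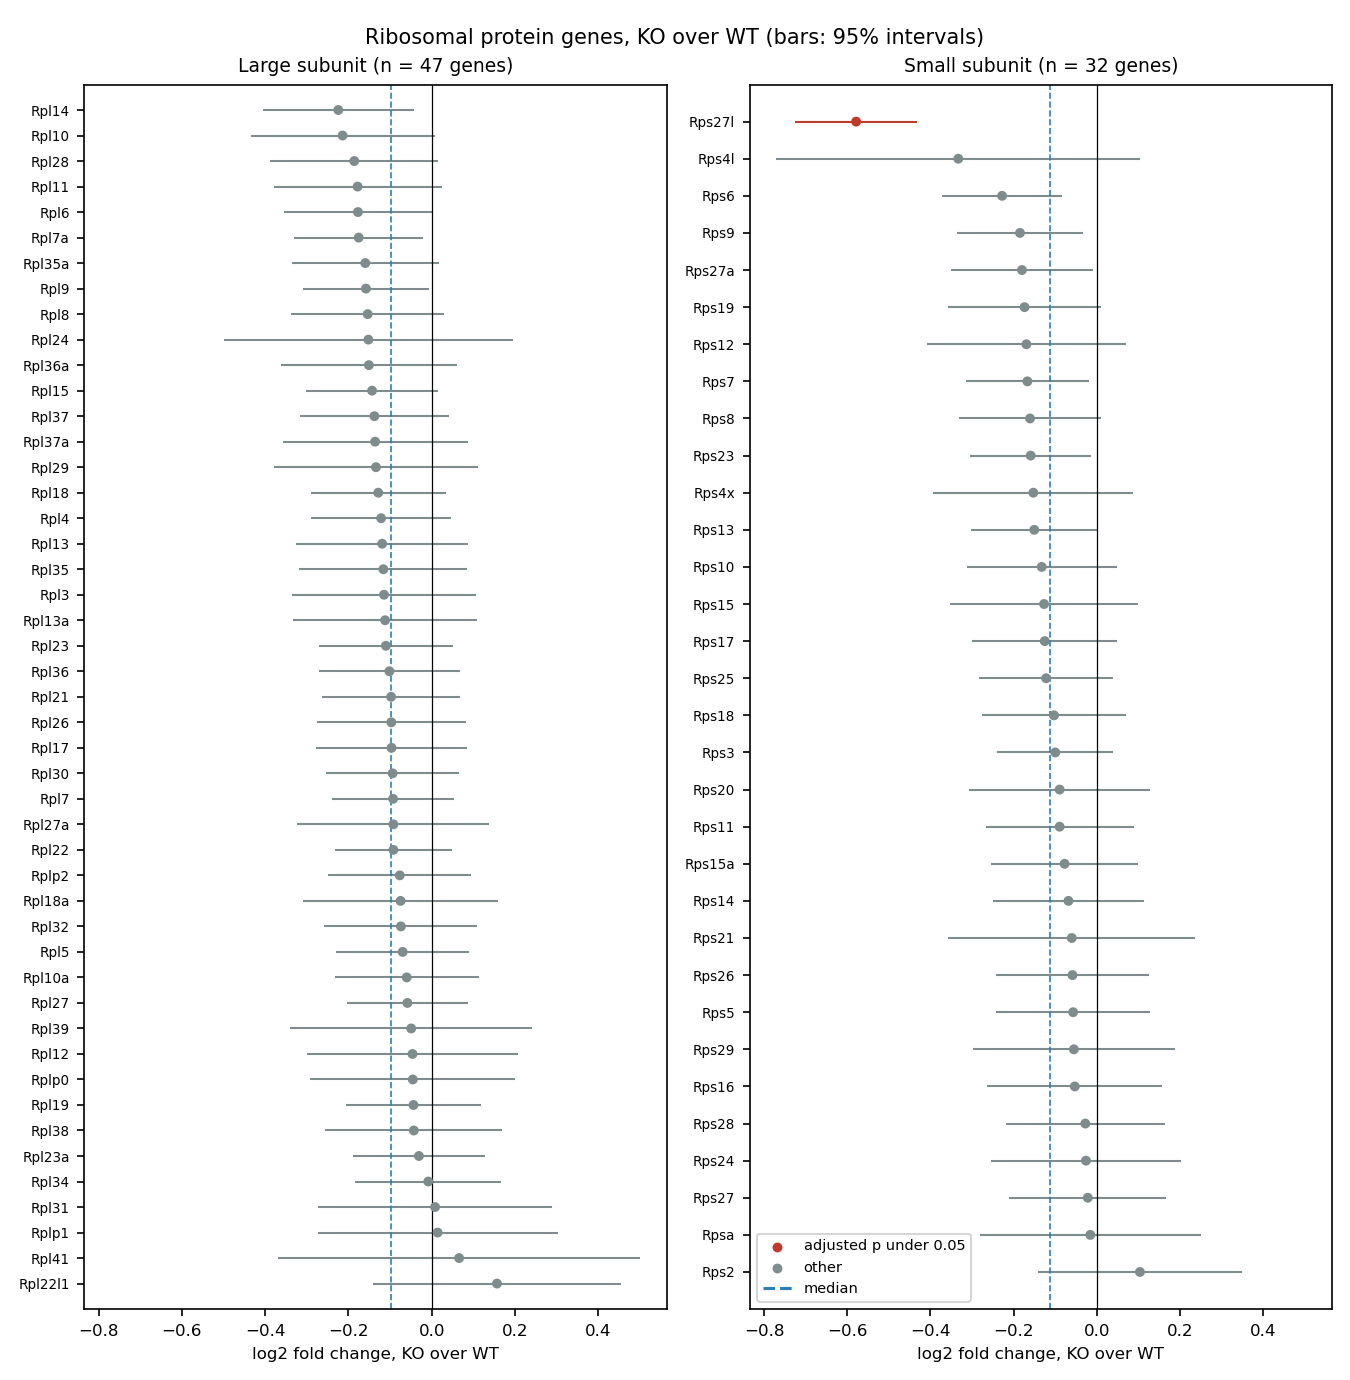
Log2 fold change of KO over WT with its 95% interval for each of the 47 large subunit (left) and 32 small subunit genes (right), with the subunit's median as a dashed line. Rps27l (red, -0.58) is the only member past the threshold, and 74 of 79 points lie below 0.

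Among small subunit members, Rps6 had the next smallest p. It stood at 138, 127, 134, 150, 147 and 138 CPM in KO 574, 584, 588, 591, 602 and 780, against 149, 170, 165, 166, 164 and 162 CPM in WT 573, 590, 601, 776, 777 and 778. Only WT 573 overlapped the KO libraries (log2 fold change -0.23, standard error 0.07, adjusted p = 0.0747). Rps9, which lies near the entry of the mRNA into the 40S subunit, stood at 264 ± 10.98 CPM in KO and 300.2 ± 17.7 CPM in WT (-0.19, adjusted p = 0.149). Rps7, which is needed for the processing of ribosomal RNA, was at 143 ± 9.95 CPM in KO and 161 ± 7.4 CPM in WT (-0.17, adjusted p = 0.180). Rps23, which lies at the decoding site, was at 136 ± 9.8 CPM in KO and 152 ± 6.1 CPM in WT (-0.16, adjusted p = 0.193). The ranges of KO and WT libraries overlapped for Rps9, Rps7 and Rps23. Rps27a, translated as a fusion with ubiquitin, was at 216 ± 19.98 CPM in KO and 244 ± 12.7 CPM in WT (-0.18, adjusted p = 0.208). Rps19, the gene most often mutated in Diamond-Blackfan anemia in humans, was at 138 ± 14.3 CPM in KO and 156 ± 13.8 CPM in WT (-0.17, adjusted p = 0.263). These ranges overlapped too. Rpsa, also known as the laminin receptor, was at 444 ± 77.9 CPM in KO and 449 ± 58.2 CPM in WT (-0.02, adjusted p = 0.959). Rps2 had the one log2 fold change above 0 in the small subunit, at 494 ± 55.8 CPM in KO and 459.8 ± 70.1 CPM in WT (0.10, adjusted p = 0.644).

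Among large subunit members, Rpl14 had the smallest p. It stood at 148, 153, 153, 177, 183 and 142 CPM in KO 574, 584, 588, 591, 602 and 780, against 169.6, 177, 212, 182, 187 and 190.1 CPM in WT 573, 590, 601, 776, 777 and 778. The ranges overlapped through KO 591 and KO 602 (log2 fold change -0.22, standard error 0.08, adjusted p = 0.148). Rpl7a was at 264 ± 15.3 CPM in KO and 298 ± 15.6 CPM in WT (-0.18, adjusted p = 0.181). Rpl9 was at 225 ± 13.1 CPM in KO and 251 ± 13.2 CPM in WT (-0.16, adjusted p = 0.215). Rpl6 was at 221 ± 20.1 CPM in KO and 250.4 ± 19.5 CPM in WT (-0.18, adjusted p = 0.237). For each of Rpl7a, Rpl9 and Rpl6 the KO and WT ranges overlapped. Rpl10, an X-linked gene whose protein joins the 60S subunit late in its assembly, was at 395 ± 40.5 CPM in KO and 458 ± 57.9 CPM in WT (-0.21, adjusted p = 0.252). Rpl5 and Rpl11, which form a particle with 5S rRNA and restrain Mdm2 when free of the ribosome, had log2 fold changes of -0.07 (adjusted p = 0.627) and -0.18 (adjusted p = 0.299). The stalk genes Rplp0, Rplp1 and Rplp2 had -0.05, 0.01 and -0.08, with adjusted p-values of 0.861, 0.967 and 0.620. Rpl38, known for its part in the translation of Hox mRNAs in the mouse embryo, had -0.04 (adjusted p = 0.847). Rpl41, which encodes the shortest ribosomal protein, had the widest scatter among WT libraries of all members (SD 0.32 on the log2 scale). It was at 140, 145, 196, 203, 302 and 142 CPM in KO 574, 584, 588, 591, 602 and 780. In WT 573, 590, 601, 776, 777 and 778 it was at 140, 191, 259.8, 153, 173 and 160.1 CPM. Its ranges overlapped, with KO 602 and WT 601 highest (log2 fold change 0.07, standard error 0.20, adjusted p = 0.890).

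The members moved together from library to library, over a wider range within each genotype than the difference between the means of the genotypes. The median deviation of the 79 members from their own means over the 12 libraries was -0.14, -0.16, -0.06, 0.05, 0.17 and -0.20 on the log2 scale in KO 574, 584, 588, 591, 602 and 780. It was -0.07, 0.14, 0.20, -0.01, 0.02 and 0.05 in WT 573, 590, 601, 776, 777 and 778. The mean of these deviations was -0.05 ± 0.14 over KO libraries and 0.06 ± 0.10 over WT libraries (SD, n = 6 each). In WT 601 all 79 members stood above their mean, in KO 602 there were 69, and in KO 574 and KO 780 there was 1 each, so the genotypes overlapped. The median SD of a member was 0.147 over KO libraries and 0.124 over WT libraries on the log2 scale, against 0.235 and 0.225 over all tested genes in KO and WT. After the library median of the members was taken off it was 0.082 in KO and 0.076 in WT, smaller than before for 68 and 72 of the 79 members. With that median taken off, Rps27l still lay lower in every KO library (-0.56 to -0.12) than in any WT library (0.08 to 0.34), and it was the only member of the 79 to be so separated. The ribosomal protein genes took 1.29% to 1.54% of all counts in KO libraries and 1.37% to 1.56% in WT libraries, with a KO mean of 0.962 of that in WT.

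**Figure D3:**
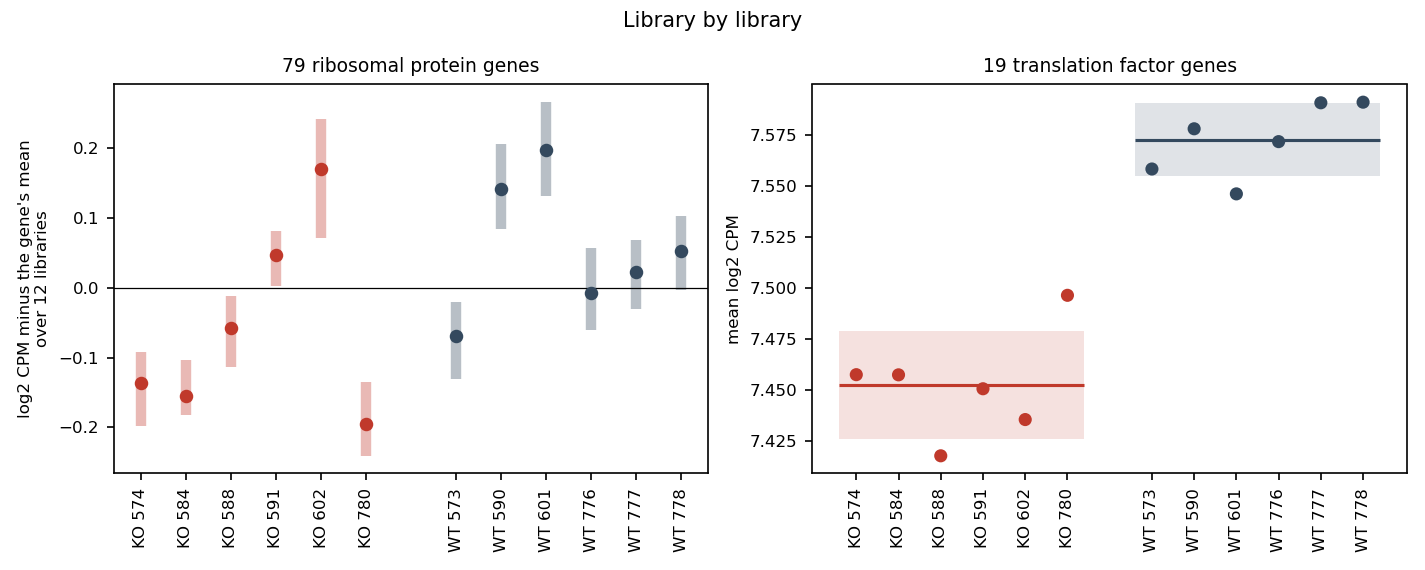
Left, median (point) and interquartile range (bar) of the deviation of the 79 ribosomal protein genes from their own mean log2 CPM in each library. Right, mean log2 CPM of 19 translation factor genes in each library, with the mean and SD of 6 libraries as lines and bands. On the left the genotypes overlap, with KO 602 at 0.17 and WT 601 at 0.20; on the right KO libraries lie at 7.42 to 7.50 and WT libraries at 7.55 to 7.59.

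The libraries with the highest median deviation, KO 602, WT 601 and WT 590, also had the highest mean log2 CPM of a list of 10 acute phase genes, at 11.3 in KO 602, 9.62 in WT 601 and 10.2 in WT 590, against 5.90 to 8.78 in the other KO libraries and 5.53 to 6.31 in the other WT libraries. They had the lowest shares of counts from the mitochondrial genome, at 3.69% in KO 602, 4.08% in WT 601 and 4.54% in WT 590, against 4.73% to 5.91% in the other KO libraries and 5.53% to 5.85% in the other WT libraries. Without these 3 libraries Rps27l was again the only member called (-0.56, adjusted p = 0.00529), 70 of 79 members lay below 0 and their median was -0.09. Within the libraries numbered 573 to 602 the median difference was -0.12 with 74 members below 0, and within those numbered 776 to 780 it was -0.20 with 76 below 0, though that range holds 1 KO library. Markers of hepatocytes had a median log2 fold change of -0.12 (0 of 8 called, and a mean of 12.02 to 12.5 log2 CPM in KO libraries and 12.1 to 12.4 in WT libraries). Those of Kupffer cells and macrophages had a median of 0.69 (0 of 11 called, 3.24 to 4.93 in KO libraries and 3.12 to 3.84 in WT libraries). Those of stellate cells and fibroblasts had a median of 0.50 (Pdgfrb and Lrat of 11 rose, 4.11 to 4.47 in KO libraries and 3.31 to 4.09 in WT libraries). The levels of KO and WT libraries overlapped for the hepatocyte and Kupffer cell lists and did not for the stellate cell list. Those of sinusoidal endothelium had a median of 0.24 (Stab2 of 10 rose, 4.27 to 4.55 in KO libraries and 3.55 to 4.61 in WT libraries). Neutrophil and monocyte markers had a median of 1.00 (0 of 4 tested called, -0.58 to 2.26 in KO libraries and -0.64 to 0.74 in WT libraries). Lymphocyte markers had a median of 0.40 (0 of 5 tested called, -0.37 to 0.32 in KO libraries and -0.75 to 0.32 in WT libraries). Red cell markers had a median of -0.09 (0 of 5 called, 4.30 to 5.15 in KO libraries and 3.78 to 5.34 in WT libraries). Levels overlapped for these last 4 lists. Unadjusted p was under 0.05, with KO higher, for 10 of 11 Kupffer cell, 7 of 11 stellate cell and 2 of 10 endothelial markers. Of the hepatocyte markers 2 of 8 were lower at that p, and each of the other lists held 1 marker that reached it. Over all tested genes 2903 of 13706 reached it in either direction. Of all these markers 1, Ly6g, was at 0 counts in some libraries (6 of 12). The part of the acute phase level, the mitochondrial share and these cell types in the ribosomal protein differences was not tested.

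Levels can be compared between genes only per length, here as TPM from the exonic lengths in the deposited table. The small subunit genes had a median of 289 TPM in KO and 306 TPM in WT, and the large subunit genes 160 TPM in KO and 170 TPM in WT. The highest large subunit gene was Rplp1 with 1370 ± 129 TPM in KO and 1331 ± 168 TPM in WT (SD, n = 6 each). Rpl4 followed with 760 TPM in KO and 808 TPM in WT, then Rpl8 with 638 TPM in KO and 694 TPM in WT. Among small subunit genes Rps12 led with 793 ± 79.7 TPM in KO and 877 ± 67.4 TPM in WT. Rps24 followed with 672 TPM in KO and 673 TPM in WT, then Rps15 with 626 TPM in KO and 669 TPM in WT. Rpl24, a protein of the 60S subunit, was lowest with 3.71 ± 0.43 TPM in KO and 4.02 ± 0.80 TPM in WT. Of its exonic bases 47.0% are shared with Gm28037, for which 0 counts were recorded. Next came the paralogs Rpl22l1, with 24.5 TPM in KO and 21.6 TPM in WT, and Rps4l, with 23.9 TPM in KO and 29.8 TPM in WT. Rps15a had 38.9 TPM in KO and 40.3 TPM in WT, Rps19 had 64.3 TPM in KO and 71.1 TPM in WT, and Rpl35a had 65.6 TPM in KO and 71.7 TPM in WT. For 34 members the deposited exonic length, which joins the exons of all transcripts, was more than 2 times the length of the principal transcript. The 2 lengths come from different annotations, GENCODE M8 for the deposited and M21 for the principal one. For some members the principal length was therefore the longer, as for Rps26 with 681 against 447 bases. The 90th percentile member in WT lay 7.61-fold above the 10th percentile member, and 3.49-fold with the length of the principal transcript for the 72 members that had one. The order of the genes also turned with that length. In RPKM, taken here as the count over the library total and the length of the principal transcript, Rplp1 was still highest in WT and Rpl24 still lowest, but Rpl10, Rps18 and Rps27 came next to the top, while Rps12 ranked 9, Rpl4 13 and Rpl8 18 of 72. Rps19 and Rpl35a, near the bottom with the deposited length, ranked 35 and 29 of 72. The medians of the subunits then lay closer together. The 30 small subunit genes with such a length had a median of 218 RPKM in KO and 223 RPKM in WT, and the 42 large subunit genes 189 RPKM in KO and 196 RPKM in WT.

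**Figure D4:**
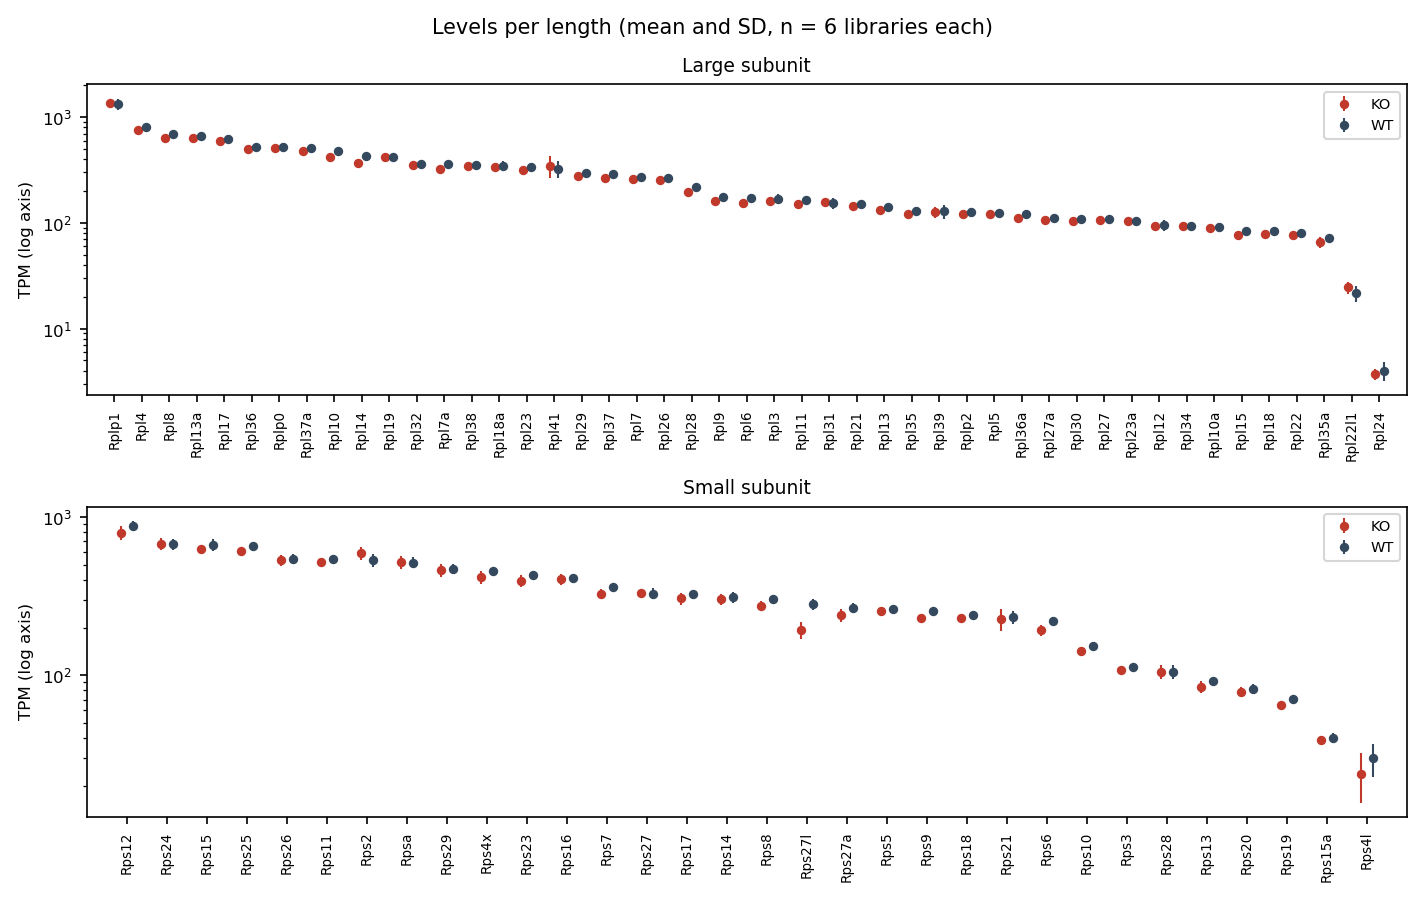
Mean TPM (log axis) with SD of 6 libraries for each large subunit gene (top) and small subunit gene (bottom), KO in red to the left of WT in dark blue, in order of the WT level. Rplp1 leads, and Rpl24 lies far below the rest at 3.71 TPM in KO and 4.02 TPM in WT.

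Counting affects the members unequally. Of the 79, 47 share no exonic base with another counted gene, and 6 share over 25%: Rpl35 (66.2%, with Wdr38), Rpl23a (62.3%, chiefly with Tlcd1), Rpl24, Rps25 (30.01%), Rpl5 (26.7%) and Rpl31 (25.3%). By the counter's defaults a read that overlaps both genes is counted for neither, and since no use of strand was stated, this holds for partners on either strand. The table also held 271 rows named as ribosomal protein pseudogenes. Such rows were found for 58 of the members, with 22 each for Rpl31 and Rps12. In 0 of the 271 rows did the mean reach 50 counts.

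Translation factors and other genes whose mRNAs are known to carry the 5′ TOP motif, without a place in the ribosome, were set beside the ribosomal proteins. Of 19 such genes 0 passed the test and 18 lay below 0, with a median log2 fold change of -0.10. An unadjusted p under 0.05 was found for 4 (21.1%), all lower. Of the tested genes over 6 log2 CPM, 66.6% lay below 0, with a median of -0.07, and 17.4% were lower at that p. All KO libraries lay below all WT libraries for 4 of the 19 genes. That separation was found for 1.97% of all tested genes and for 71 of the 1948 over 6 log2 CPM. Eef1a1, the elongation factor that brings tRNA to the ribosome, stood at 3518 ± 169 CPM in KO and 4026 ± 203 CPM in WT (log2 fold change -0.19, adjusted p = 0.237). Eif4b, a helper of the initiation helicase, stood at 269.7 ± 19.9 CPM in KO and 309 ± 14.7 CPM in WT (-0.20, adjusted p = 0.150). The others were the initiation factor 3 subunits Eif3l (-0.14, adjusted p = 0.150) and Eif3h (-0.14, adjusted p = 0.159). The mean log2 CPM of the 19 genes ran from 7.42 to 7.50 in KO libraries and from 7.55 to 7.59 in WT libraries, without overlap, also in KO 602, WT 590 and WT 601. This mean is given as a description, with no test. Among the ribosome-bound or fusion genes, Fau stood at 161 ± 7.5 CPM in KO and 188 ± 16.1 CPM in WT (-0.22, adjusted p = 0.111), with all KO libraries below all WT libraries. Gnb2l1, also named Rack1, stood at 291 CPM in KO and 309.9 CPM in WT (-0.09, adjusted p = 0.592).

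Of 76 tested genes for the mitochondrial ribosome, a separate set of proteins coded in the nucleus, 65 lay below 0 with a median of -0.09. Over all tested genes 48.2% lay below 0, with a median of 0.01. An unadjusted p under 0.05 was found for 11 of the 76 genes (14.5%), all lower, and 9.9% of all tested genes were lower at that p. Of the 76 genes 1 passed the adjusted threshold, against 3.82% of all tested genes. It was Mrpl40, which fell, with 16.4 ± 1.2 CPM in KO and 20.03 ± 0.5 CPM in WT (-0.29, standard error 0.06, adjusted p = 0.0239). The 39 ribosome biogenesis genes had a median of -0.03 with 0 called, and the 13 genes of RNA polymerase I, which makes ribosomal RNA, a median of 0.00 with 0 called. A list of 19 genes was drawn up around TOR signals to ribosomes and also holds the transcription factor genes Myc, Max and Mxd4. Of these 19 genes 1 passed. It was Mlx, a partner of glucose-responsive transcription factors, and it fell to 20.7 ± 1.6 CPM in KO, against 27.0 ± 1.7 CPM in WT (-0.39, standard error 0.07, adjusted p = 0.00821). Mtor, which encodes the TOR kinase, had -0.05 (adjusted p = 0.803). Since Rps27l is known as a p53 target, a list of 15 other genes was set beside it, made of p53 targets and of Trp53 (0.04), which encodes p53 itself. Of these 0 passed, the median log2 fold change was 0.01, 7 lay below 0 and 8 above. The smallest p was that of Bbc3, which encodes the cell death protein PUMA, at 4.06 ± 1.03 CPM in KO and 6.10 ± 1.51 CPM in WT (log2 fold change -0.59, unadjusted p = 0.00944, adjusted p = 0.108), and its groups overlapped. Mdm2 had 0.01 (32.8 ± 2.7 CPM in KO, 32.6 ± 2.9 CPM in WT) and Ccng1 0.00 (32.2 ± 6.7 CPM in KO, 32.3 ± 3.0 CPM in WT). Cdkn1a had -1.14 with wide scatter in both genotypes (4.97 to 53.1 CPM in KO, 5.05 to 127 CPM in WT, adjusted p = 0.504).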

How the data were processed

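RNA from the livers was purified with miRNeasy, turned into TruSeq RNA libraries and read on a HiSeq instrument, per the labels' protocols. The authors' deposited values are raw fragment counts for each gene name, from featureCounts 1.5.0-p2 run on GENCODE M8 exons without an option for strand or for multiply mapping reads, per the file headers. By that tool's defaults, reads over several genes or mapped to several places are not counted, which can lower genes with near-identical copies or overlapping neighbours. STAR, DESeq2 and mm10 appear in the submitters' processing notes, without settings. The exonic length per gene is another deposited value and served for TPM.

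Counts were tested in R 4.3.3 with edgeR 4.0.16 (filterByExpr with a minimum count of 10, TMM, robust quasi-likelihood fit and test with genotype as the only term), on all 13706 tested genes of 6 KO and 6 WT libraries, with Benjamini-Hochberg adjustment and a threshold of 0.05. Total counts ran from 22129092 to 51082317 per library. Log2 CPM carry a prior count of 2. Standard errors are the fold change over the square root of F, and intervals are at 95%. The fit was also run on simulated data with known changes, all larger than the median change of the members, and the outcome is not given here. No P-value was computed over the members as a set. Sequences came from RefSeq promoter windows (GRCm38.p6) and GENCODE M21 transcripts, matched by symbol, and no protein sequence was used here.

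The members, the gene lists and the rule for named genes were chosen with earlier results of these data known. Named were A1cf, every member past the threshold, the 5 members of each subunit with the smallest p, expressed paralog pairs, chosen members of known function, the 3 highest and 3 lowest TPM and the 2 largest SD in each subunit, and up to 3 called members of each other list. The p53 targets Mdm2, Ccng1 and Cdkn1a, the translation factors, and Bbc3, Trp53, Mtor, Myc, Max, Mxd4, Rps18, Rpl23a, Rpl35, Rps25 and Rpl31 were named after their values were seen. Alternatives were RLE size factors, library totals, TMM without the ribosomal protein genes, other count filters, DESeq2 1.42.0, limma-voom 3.58.1, the library number range as a covariate or as a limit, leaving out each library or the deepest ones, the share without the 100 most abundant genes, and a member minimum of 500 counts. The ratio to Rps27, the principal transcript length, the pyrimidine run and the fit without KO 602, WT 590 and WT 601 were added after seeing the data.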

Additional observations from a re-analysis of the deposited data

Results flagged for a closer look

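Of 72 groups of 6 libraries checked (the named members and 2 library summaries, in each genotype), 6 held 1 library far from the others by Dixon's test at the 95% level, where chance gives about 1 in 20. In KO, Rpl5 stood highest in KO 602, at 7.983 log2 CPM against 7.681 to 7.762 in the other KO libraries. Rpl22 stood lowest in KO 780, at 6.492 log2 CPM against 6.686 to 6.732. In WT, Rpl22 stood lowest in WT 776, at 6.612 log2 CPM against 6.767 to 6.832. Rpl4 stood highest in WT 590, at 9.229 log2 CPM against 8.973 to 9.069, and Rps15 highest in WT 601, at 7.973 log2 CPM against 7.477 to 7.621. Rps6 stood lowest in WT 573, at 7.216 log2 CPM against 7.341 to 7.414, and this is the WT library that overlapped the KO libraries for that gene.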

How the results depend on the processing

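The Rps27l call, the count of 0 members called higher, the count of members below 0 (64 to 77 of 79) and both subunit medians (-0.16 to -0.05) kept their direction and side in each alternative run. DESeq2 called 4 members, adding Rpl7a (-0.18), Rps6 (-0.23) and Rps9 (-0.19), and called 1175 genes in all, against 523. That count over all genes was 57 in libraries 573 to 602, 206 without KO 588 and WT 573 (the deepest) and 266 to 638 with 1 library left out. It moved by over 1.5 times without KO 574 (315), KO 588 (319), KO 591 (324), WT 573 (312), WT 777 (266) or WT 778 (294). Levels spread 3.49-fold with principal transcript lengths. Some uncalled fold changes near 0 changed sign, and of these the members under the rule for named genes are given. With library totals alone 10 members changed sign, among them Rps24 (0.0182), Rps27 (0.0239), Rplp0 (0.0022), Rpsa (0.0291) and Rpl38 (0.0015), and the median of all genes was 0.06 and that of the members -0.05. With the number range as covariate 4 did, among them Rplp1 (-0.0845) and Rpl41 (-0.0537). In libraries 573 to 602 there were 7, among them Rplp1 (-0.0914), Rps2 (-0.0029) and Rpl38 (0.0206), and without the deepest libraries 3, among them Rplp1 (-0.0288) and Rpl41 (-0.0086). Without KO 602, WT 590 and WT 601 there were 4, among them Rps27 (0.0063) and Rplp0 (0.0136). With 1 library left out 0 to 6 members changed sign, and the ranges crossing 0 among members under that rule were -0.0745 to 0.0846 for Rplp1, -0.1167 to 0.2003 for Rpl41, -0.098 to 0.0157 for Rps24, -0.0545 to 0.0225 for Rps27, -0.1148 to 0.0118 for Rplp0, -0.113 to 0.038 for Rpsa and -0.1013 to 0.0027 for Rpl38. The cause of these changes was not tested. No paired analysis was possible because the genotypes share no library number. The least abundant member was Rpl24, at 1.74 CPM in KO and 1.94 CPM in WT, and the largest standard error was that of Rps4l (0.20). The 95% interval was within 1.25-fold in either direction for 48 of 79 members.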
